A study of Mus musculus with 16 samples.

Results

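The hippocampus of 3xTg mice was compared with that of wild-type (WT) mice when both genotypes had received CAY10566, an inhibitor of stearoyl-CoA desaturase (SCD). The comparison used 8 of the 16 sequenced mice, chosen by their sample labels, with 4 WT mice (WT-S) and 4 3xTg mice (3xTg-S) on the inhibitor. All 8 were females of 10 months that had carried a 28-day osmotic pump, which infused 80 µM inhibitor in 0.8% DMSO and artificial cerebrospinal fluid into a lateral ventricle. WT-S mice had the strain label C57BL/6J x 129S1, and 3xTg-S mice were of the 3xTg line on a mixed B6;129 background. The 3xTg line carries a human APP transgene with the Swedish mutation and a human tau transgene with P301L, both driven by the neuronal Thy1.2 cassette. The WT mice came from the background strain of the line and are not described as littermates, so genotype cannot be told apart from other differences between the lines. The treatment labels name the Cayman compound, whereas the general protocol entry gives ab142089, an SCD inhibitor of another supplier, and the mice were taken as labelled. The remaining 8 mice, 4 WT-D and 4 3xTg-D of the same strains, age and surgery, received the DMSO vehicle and were used as the reference for the genotype effect without inhibitor.

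SCD is a membrane enzyme of the endoplasmic reticulum that puts a double bond into saturated fatty acids and so makes monounsaturated fatty acids such as oleic acid. Neurons, glia and ependymal cells use these fatty acids in membranes, triglycerides and cholesteryl esters. The 3xTg mouse is a model of Alzheimer's disease that develops amyloid and tau pathology in the hippocampus and cortex. A genotype contrast in inhibitor-treated mice shows which transcripts set the lines apart when both receive the inhibitor. The activity of the enzyme was not measured in these data.

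Expression was measured by bulk RNA sequencing and is given as CPM, a gene's read count relative to all reads on genes of that mouse, scaled by TMM factors. The WT-S libraries held 18445533 to 21903061 reads on genes and the 3xTg-S libraries 15413385 to 22098297, and 8.55 to 13.1% and 7.82 to 15.1% of uniquely placed reads fell outside annotated genes. Mice of the same group varied beyond counting noise, with a chi-square over degrees of freedom between 5.74 and 42.8 in 12 pairs, so each was counted as 1 replicate. Of 28 listed markers of hippocampal excitatory neurons, all 28 were tested, with a summed level of 3540 to 3910 CPM in WT-S and 3300 to 4100 CPM in 3xTg-S mice. Markers of the choroid plexus, the ventricular tissue beside the hippocampus, were high in WT-S 1, at 732 CPM in sum against 208 to 229 CPM in the other WT-S mice and 190 to 252 CPM in 3xTg-S. A set of interferon-response genes was high in 3xTg-S 1, at 433 CPM against 139 to 166 CPM in the other 3xTg-S mice and 127 to 158 CPM in WT-S. Several results that move with either library are given with and without it, but this was not done for every result. Genes that overlap another gene on the opposite strand may hold its reads, which applies to App, Bdnf, Ccl27a, Col6a4, Hddc3, H2-T22, Lypd1, Tagap, Tifa, Glo1, Grwd1, Elovl1, Fdft1, Hmgcs1, Abhd14a, Mrpl3, Usp18, Rarres2, Tagap1 and Zfp429. It also applies, among others, to Pcdhga11, Gm18562, 9430065F17Rik, E430024P14Rik, Gm10524 and Zfp236.

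The genes of the transgenes and of their cassette were examined first. Thy1, a cell-surface glycoprotein whose gene supplies the cassette of both transgenes, had 539, 625, 580 and 534 CPM in the WT-S mice and 1560, 2140, 1780 and 1880 CPM in the 3xTg-S mice. Every 3xTg-S mouse lay above every WT-S mouse, and the log2 fold change was 1.69 ± 0.10 (SE, n = 4 per group, adjusted p = 4.85e-06, edgeR's quasi-likelihood test). App, the amyloid precursor protein gene, had 1640, 1700, 1500 and 1650 CPM in WT-S and 2230, 2620, 2330 and 2300 CPM in 3xTg-S mice, and rose by a log2 fold change of 0.55 ± 0.08 (SE, adjusted p = 0.00466, edgeR). Reads from mouse App and from the human transgene were not separated, and an antisense gene, Gm49227, overlaps App. Mapt, which encodes tau, had 403, 474, 423 and 482 CPM in WT-S and 521, 552, 509 and 538 CPM in 3xTg-S mice, groups that did not overlap, but its difference of 0.25 ± 0.08 on the log2 scale missed the threshold (adjusted p = 0.193, edgeR).

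**Figure D1:**
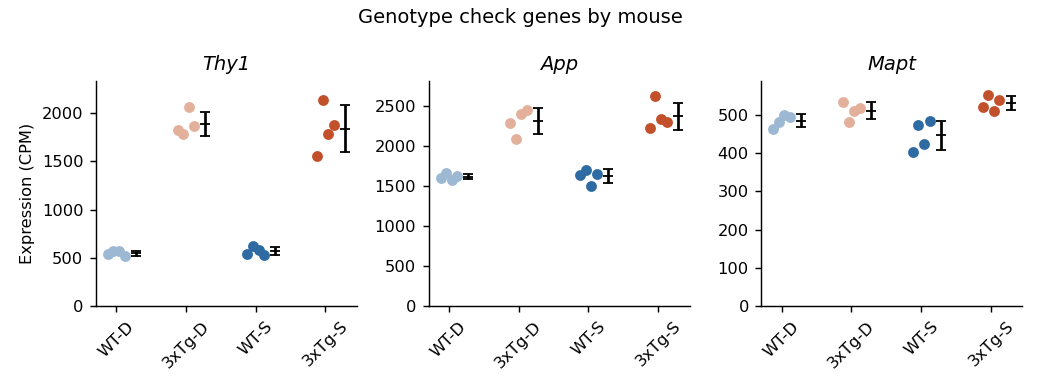
Expression of Thy1, App and Mapt (CPM, y axes from 0) in each mouse of the 4 groups, with the mean ± SD (n = 4) beside the points. Thy1 and App of all 3xTg-S mice lie above those of all WT-S mice, and Mapt is separated by a smaller margin.

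Between 3xTg-S and WT-S mice, 225 of 16475 tested genes passed an adjusted p of 0.05 or less (1.37% of those tested), of which 96 were higher in 3xTg-S (0.583%) and 129 lower (0.783%). At the study's threshold for differentially expressed genes (DEGs), an unadjusted p of 0.01 or less, there were 693 genes, 315 higher and 378 lower (4.21%). In the text that follows, rose and fell refer to genes past the adjusted threshold. All 225 genes had no overlap between the 4 WT-S and the 4 3xTg-S mice, against 1112 genes (6.75%) of all those tested. The lower genes had the wider changes. Of the 129 genes that fell, 57 fell by more than 2 on the log2 scale and 7 by less than 0.5, while of the 96 that rose 18 rose by more than 2 and 13 by less than 0.5. The count of 225 depended on single mice, and was 141 without WT-S 1, 145 without WT-S 2 and 124 without 3xTg-S 3.

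The same genotype contrast in vehicle-infused mice, which shares no mouse with the CAY10566 contrast, gave 307 genes (1.86% of those tested), 144 higher (0.874%) and 163 lower (0.989%) in 3xTg-D. It held 792 genes (4.81%) at the unadjusted threshold and 1346 genes (8.17%) without overlap of the groups. Of these, 136 were called in both contrasts and all 136 with the same sign, which is 60.44% of the CAY10566 genes and 44.3% of the vehicle genes. With these included, 198 of the 225 genes called under CAY10566 were at an unadjusted p under 0.05 with the same sign under vehicle. The log2 fold changes of the 225 genes under CAY10566 and under vehicle had a Pearson r of 0.962 and a Spearman coefficient of 0.976 across genes, which are not independent replicates, and 222 had the same sign. Over all 16475 genes the Pearson r was 0.72 and the Spearman coefficient 0.17, and over the 16079 genes called in neither contrast 52% had the same sign. Each list was wider in the contrast that chose it. Of the CAY10566 genes 165 of 225 had the larger absolute fold change under CAY10566, and of the vehicle genes 205 of 307 had the larger one under vehicle. The difference of genotype effects, tested in all 16 mice with edgeR, reached an adjusted p of 0.05 in 0 genes, with a smallest adjusted p of 0.799. At an unadjusted p under 0.05 it held 808 genes, at 0.01 or less 103 genes (0.625%), and DESeq2's likelihood ratio test called 1 gene, the pseudogene Gm15920. Gm15920 was also called by edgeR without WT-D 3 (adjusted p = 0.000106), and it was not called in either genotype contrast. A p above the threshold does not show that the genotype effects were equal.

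**Figure D2:**
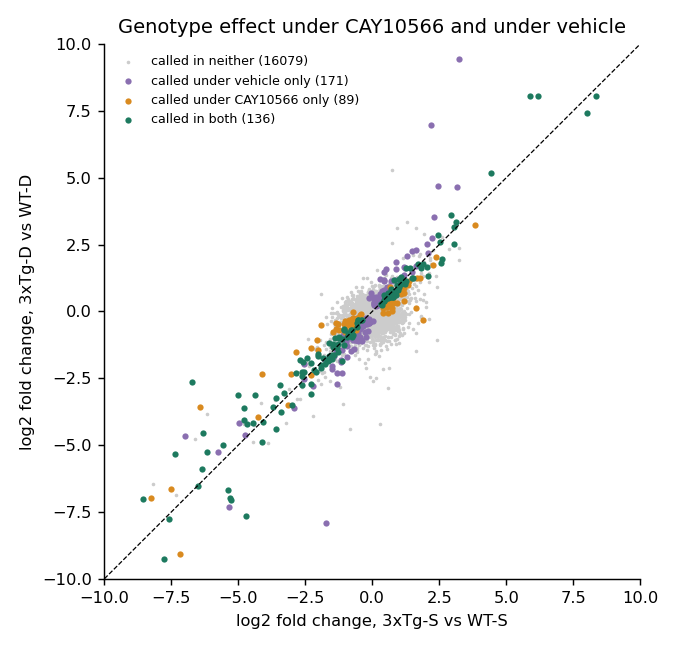
Log2 fold change of each of 16475 tested genes in 3xTg-S vs WT-S (x axis) against 3xTg-D vs WT-D (y axis), with a dashed line of equality and colours for the genes called in both contrasts (136), under CAY10566 alone (89), under vehicle alone (171) or in neither (16079). The genes called in both lie near the line at both ends, while the uncalled genes form a cloud around 0.

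Among the genes that fell were 3 Serpina3 genes. These genes lie near one another on chromosome 12, in a span of 4 tested genes of which these 3 were called. They encode secreted inhibitors of serine proteases, of which Serpina3n is widely used as a marker of reactive astrocytes. Serpina3n (GRCm38, chr12:104406729-104414329, plus strand) had 201, 217, 202 and 207 CPM in WT-S and 41.3, 49.8, 47.8 and 42.9 CPM in 3xTg-S mice. The groups were far apart and tight, with a log2 fold change of -2.18 ± 0.08 (SE, adjusted p = 1.49e-07, edgeR). Serpina3m had 3.47, 4.09, 4.30 and 4.07 CPM in WT-S mice, and in 3xTg-S it was at 0 in 3 mice and at 0.0642 CPM in 3xTg-S 3 (adjusted p = 4.56e-06, edgeR). It overlaps Serpina3k on the same strand, so its reads are uncertain. Serpina3f had 0.797, 0.673, 0.687 and 0.488 CPM in WT-S, and 1 of the 3xTg-S mice had any read, at 0.0653 CPM (adjusted p = 0.00336, edgeR). All 3 genes also fell under vehicle, where Serpina3n had a log2 fold change of -2.17 ± 0.09.

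The windows around the starts of Serpina3n and Serpina3f are shown because these genes of the same span both fell. They hold 250 bases before and 50 bases after the start, from RefSeq on GRCm38.p6, both on the plus strand, at chr12:104406458-104406757 for Serpina3n and chr12:104214294-104214593 for Serpina3f. Capitals mark the runs of at least 10 bases that occur in both windows, 3 runs and 38 bases in each.
Serpina3n: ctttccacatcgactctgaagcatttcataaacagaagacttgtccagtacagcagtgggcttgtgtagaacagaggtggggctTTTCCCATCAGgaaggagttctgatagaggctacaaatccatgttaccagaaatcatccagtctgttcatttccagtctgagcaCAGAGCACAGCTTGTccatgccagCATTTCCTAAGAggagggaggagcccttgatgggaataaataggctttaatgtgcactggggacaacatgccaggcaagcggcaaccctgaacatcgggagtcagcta
Serpina3f: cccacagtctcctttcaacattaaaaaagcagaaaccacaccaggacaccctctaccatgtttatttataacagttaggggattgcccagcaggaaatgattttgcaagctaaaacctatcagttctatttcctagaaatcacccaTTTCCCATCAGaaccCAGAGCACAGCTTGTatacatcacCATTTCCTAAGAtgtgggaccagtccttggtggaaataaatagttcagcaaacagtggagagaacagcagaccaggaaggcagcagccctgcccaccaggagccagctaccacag
The shared runs lie upstream of both starts, in the same order. A search of both strands found TATAAA in the Serpina3f window (13.6% of 32841 windows of 300 bases hold it). It lay on the minus strand, opposite to the gene, 186 bases before the start. TTCNNNGAA was in the same window, 121 bases before the start (8.3% of windows), and neither string was in the Serpina3n window. CCAAT and GGGCGG, held by 37.4% and 35.7% of all windows, were in neither. Serpina3m had no entry.

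Among the called genes were a few chemokines and their receptors, which direct the movement of immune cells, described here without a count over all such genes. Ccl27a, a chemokine, had 14.6, 15, 17.3 and 16.8 CPM in WT-S and 1.70, 1.33, 1.28 and 2.10 CPM in 3xTg-S mice, and fell by 3.30 ± 0.16 on the log2 scale (SE, adjusted p = 9.25e-07, edgeR). It lies across from Il11ra1 on the other strand, so its counts may hold reads of that gene. Ccl28, a second chemokine, had 4.64, 6.11, 4.26 and 4.23 CPM in WT-S and 0.327, 0.429, 0.0642 and 0.270 CPM in 3xTg-S mice (adjusted p = 4.77e-05, edgeR). Ccr6, the receptor of the chemokine Ccl20, had 1.19 to 2.02 CPM in WT-S mice and a total of 2 reads in the 4 3xTg-S mice. In the other direction, Ccr1 had 0.469, 0.155, 0.0916 and 0.163 CPM in WT-S and 1.70, 2.72, 1.92 and 1.13 CPM in 3xTg-S mice, and rose by 3.04 ± 0.45 on the log2 scale (SE, adjusted p = 0.00593, edgeR). Ccr1 is a receptor of microglia and infiltrating myeloid cells.

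Other genes of innate immunity fell as well. Gbp2b, an interferon-induced GTPase, had 3.94, 1.45, 3.43 and 3.14 CPM in WT-S, and 1 read in all in the 3xTg-S mice (adjusted p = 0.000103, edgeR). In a fit of all 16 mice it was not called (adjusted p = 0.136), and 1 vehicle mouse, WT-D 1, stood at 59.0 CPM. Alpk1, a kinase that senses a bacterial sugar metabolite, had 23.4, 15.2, 20.8 and 29.5 CPM in WT-S and 7.97, 5.38, 8.53 and 7.12 CPM in 3xTg-S mice (adjusted p = 0.00385, edgeR). Tifa, the adaptor protein that acts downstream of Alpk1 and lies next to it on chromosome 3, fell by 1.07 ± 0.14 on the log2 scale (SE, adjusted p = 0.00305, edgeR), from 16.5 ± 2.18 to 7.90 ± 1.31 CPM (SD, n = 4). Tagap, a GTPase-activating protein of lymphocytes and myeloid cells, had 3.02 to 6.63 CPM in WT-S and 0.286 to 0.784 CPM in 3xTg-S mice and fell by 3.45 ± 0.33 (SE, adjusted p = 0.000215, edgeR), while it overlaps the opposite-strand gene E430024P14Rik, which rose.

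Several genes of basic cell functions also had lower levels in 3xTg-S. Tuba1c, an alpha-tubulin, had 19, 21, 9.2 and 9.05 CPM in WT-S and 0.392, 0.0476, 0.128 and 0.162 CPM in 3xTg-S mice (adjusted p = 0.000276, edgeR). The WT-S mice fell into 2 high and 2 low animals, all of them above every 3xTg-S mouse, and tubulin genes share sequence with close copies. Mcm6, a subunit of the replicative helicase, went from 17.0 ± 1.54 to 3.51 ± 0.587 CPM (SD, n = 4, adjusted p = 4.59e-06, edgeR). Wwox, an oxidoreductase with WW domains and an ortholog of a human Alzheimer's disease risk gene, had 35.0, 38.8, 38.0 and 29.9 CPM in WT-S and 14.2, 16, 14.8 and 12.8 CPM in 3xTg-S mice, a log2 fold change of -1.29 ± 0.11 (SE, adjusted p = 6.01e-05, edgeR). Kcnip3, which binds calcium and modulates A-type potassium channels, fell from 66.0 ± 4.23 to 44.1 ± 1.36 CPM (SD, n = 4, adjusted p = 0.00168, edgeR). Hddc3, a phosphohydrolase, had 29.9, 30.8, 33.4 and 17.6 CPM in WT-S and 8.58 to 10.3 CPM in 3xTg-S mice, with WT-S 4 the lowest of its group. Mcm6, Wwox, Kcnip3, Hddc3, Alpk1, Tifa, Tagap, Ccl27a, Ccl28, Serpina3f, Rpl29 and the genes of the runs on chromosomes were singled out after their values were seen.

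Many of the widest differences belonged to pseudogenes and unnamed noncoding transcripts. Of 377 tested pseudogenes 23 were called (6.1%), 19 of them lower in 3xTg-S, against 169 of 14257 protein-coding genes (1.19%). Rps3a3, a processed copy of a ribosomal protein gene, had 31.1, 34.0, 34.5 and 47.0 CPM in WT-S and 0.196, 0.0953, 0 and 0.162 CPM in 3xTg-S mice. Gm6166 had 14.3, 13.4, 30.0 and 18.7 CPM in WT-S and at most 0.191 CPM in 3xTg-S mice. Gm15610, Gm6916, Rps13-ps1 and Mrpl48-ps had 2.49 to 6.32 CPM in the WT-S mice and no more than 8 reads in all in the 3xTg-S group. Gm8423, in contrast, had 9.28, 7.91, 8.40 and 6.69 CPM in 3xTg-S mice and 2 reads in all in WT-S. Gm18562 and Gm47240 likewise had 0.863 to 2.75 CPM in 3xTg-S mice and 2 and 1 reads in WT-S. Reads of processed pseudogenes can be exchanged with the parent gene, so these levels are uncertain.

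In a few genes a group had no read at all. Gm46620, a long noncoding RNA gene of chromosome 18, had 1.5, 1.76, 2.44 and 2.91 CPM in 3xTg-S mice and 0 in all WT-S mice, at least 14.4-fold higher against a floor of 3 counts per library. Its neighbour Gm50350 had 2.11, 2.90, 2.43 and 2.49 CPM in WT-S mice and 0 in all 3xTg-S mice, at least 14.3-fold lower in 3xTg-S. Gm10524 and Zfp236, which adjoin them and lie across from each other on opposite strands, rose by 2.52 ± 0.18 and 0.90 ± 0.15 on the log2 scale (SE). Gm45456, a processed pseudogene of chromosome 7, had 0.673 to 1.56 CPM in WT-S mice and 0 in all 3xTg-S mice, at least 6.3-fold lower.

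The protein-coding genes with the largest increases were of varied function. Rpl34, a protein of the large ribosomal subunit, had 3.52, 2.59, 4.95 and 3.36 CPM in WT-S and 31.2, 32.6, 27.6 and 28.5 CPM in 3xTg-S mice, and rose by 3.05 ± 0.16 on the log2 scale (SE, adjusted p = 2.1e-06, edgeR). Rpl29, of the same subunit, rose by 1.26 ± 0.19 (SE, adjusted p = 0.00604, edgeR). Ribosomal protein genes have many processed copies, so both are uncertain. Lgr6, a receptor for R-spondins that strengthens Wnt signals, had 1.69, 2.74, 2.70 and 4.23 CPM in WT-S and 15.2, 13.7, 19.6 and 18.6 CPM in 3xTg-S mice, a log2 fold change of 2.57 ± 0.23 (SE, adjusted p = 0.000235, edgeR). Neurog2, a transcription factor that commits progenitors to a neuronal fate, had 0.0938 to 0.229 CPM in WT-S and 1.31, 1.38, 0.706 and 1.35 CPM in 3xTg-S mice (adjusted p = 0.00292, edgeR). Col6a4, a collagen VI chain, had 0.311 to 0.650 CPM in WT-S and 3.27, 1.10, 1.54 and 4.10 CPM in 3xTg-S mice and was more variable, with an adjusted p that rose to 0.0937 without WT-S 1, 0.0887 without WT-S 2, 0.0866 without WT-S 3 and 0.0668 without 3xTg-S 1. Exoc3l2, related to a subunit of the exocyst, had 0.104 to 0.281 CPM in WT-S and 0.784 to 1.35 CPM in 3xTg-S mice, and the antisense transcript BC018473 had 0.155 to 0.328 and 0.647 to 1.54 CPM. BC018473 lost its call without WT-S 1, WT-S 2, WT-S 3, 3xTg-S 1 or 3xTg-S 3 (adjusted p of 0.0818 to 0.132).

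**Figure D3:**
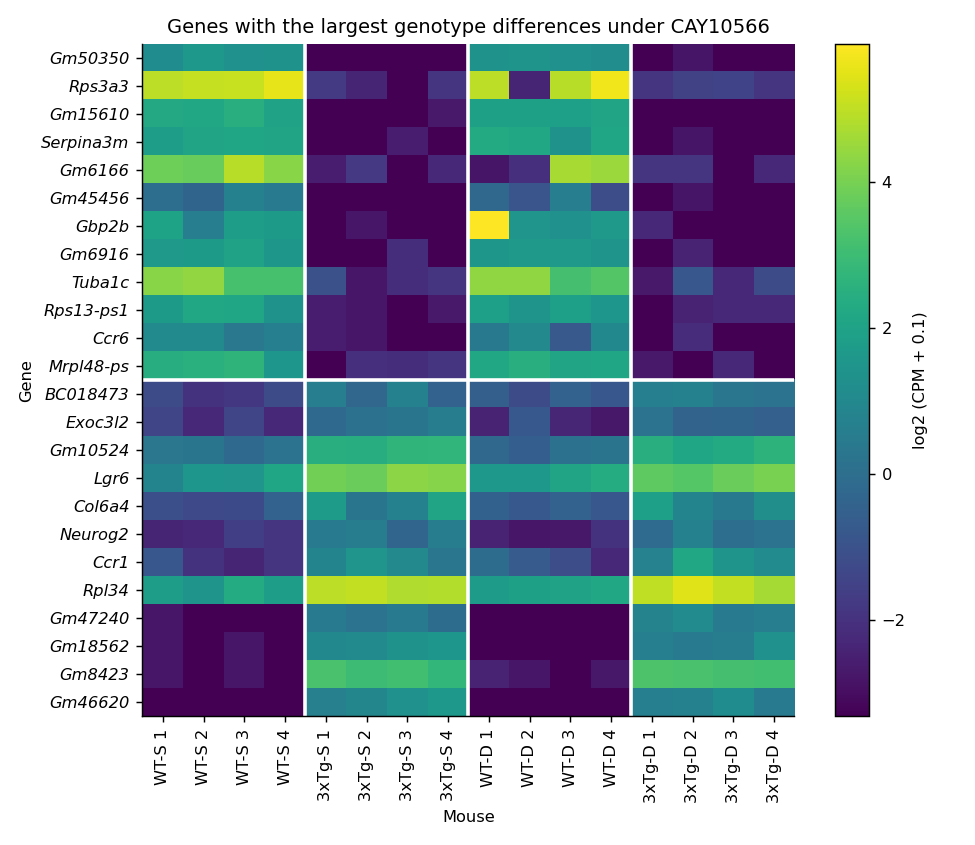
Heatmap of log2 (CPM + 0.1) in each of the 16 mice (columns) for the 12 genes with the largest decrease (upper rows) and the 12 with the largest increase (lower rows) in 3xTg-S vs WT-S among called genes with a mean of at least 1 CPM in the higher group. In every row the 4 WT-S and the 4 3xTg-S mice do not overlap, as the choice of genes required. WT-D mice far from their group are seen for Rps3a3 in WT-D 2, Gm6166 in WT-D 1 and WT-D 2, and Gbp2b in WT-D 1.

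The 6 called genes with the highest mean level were Thy1, App, Serpina3n, Lmo3, Arhgap35 and Lypd1, and the last 3 differed by less than 1 on the log2 scale. Lypd1, a membrane-anchored regulator of nicotinic receptors, had 105, 109, 117 and 126 CPM in WT-S and 173, 165, 184 and 159 CPM in 3xTg-S mice, and rose by 0.58 ± 0.08 on the log2 scale (SE, adjusted p = 0.00403, edgeR). Arhgap35, a GTPase-activating protein that acts on the actin cytoskeleton, had 225, 229, 220 and 232 CPM in WT-S and 269, 310, 280 and 304 CPM in 3xTg-S mice, a log2 fold change of 0.36 ± 0.07 (SE, adjusted p = 0.0267, edgeR). Lmo3, a LIM-only transcriptional cofactor, had 226, 243, 233 and 247 CPM in WT-S and 176, 202, 172 and 174 CPM in 3xTg-S mice, a log2 fold change of -0.39 ± 0.07 (SE, adjusted p = 0.0246, edgeR). The calls of Arhgap35 and Lmo3 were lost without WT-S 1, WT-S 2, WT-S 3, 3xTg-S 3 or 3xTg-S 4, and that of Lmo3 also without 3xTg-S 1, with adjusted p of at most 0.118.

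The called genes lay close together on the chromosomes. Chromosome 13 held 32 of them, 5.07% of its 631 tested genes and 14.2% of all called genes, with 25 lower and 7 higher in 3xTg-S, followed by chromosome 18 with 3.24% and chromosome 9 with 2.43%. The X chromosome had 0 called among 567 tested genes under CAY10566 and 5 under vehicle. Of the 225 called genes 108 (48%) had another called gene within 1 Mb, against 18.4% of the genes not called. There were 16 runs of at least 3 called genes near one another, 68 genes in all, with uncalled genes between them in most runs (the spans held from 4 to 55 tested genes), and within most of them some genes rose and others fell.

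Several of these runs joined genes of known function. On chromosome 13, Ero1lb, an endoplasmic reticulum oxidase, Gpr137b-ps and Gng4, a G-protein gamma subunit, fell, while Gpr137b, a lysosomal membrane protein, rose from 7.72 ± 0.564 to 18.0 ± 1.14 CPM (SD, n = 4, adjusted p = 4.77e-05, edgeR). Gpr137b and its pseudogene moved in opposite directions, and reads could be exchanged between them. Further along the chromosome 5 of 29 tested genes in a span fell and none rose, Rsl1, Zfp429, Zfp874a, 9430065F17Rik and Gm10037, among them zinc finger repressors of the KRAB type. Zfp429 had 4.03, 2.95, 1.92 and 2.22 CPM in WT-S and 0.0653 to 0.192 CPM in 3xTg-S mice. On chromosome 9, Mrpl3, Col6a4, Poc1a, Rpl29 and Abhd14a rose and Acy1, an aminoacylase, fell from 7.11 ± 0.565 to 4.21 ± 0.465 CPM (SD, n = 4, adjusted p = 0.014, edgeR). On chromosome 1, Dbi, the acyl-CoA-binding protein that carries long-chain acyl-CoA esters, had 146, 158, 156 and 109 CPM in WT-S and 95.7, 93.8, 76.3 and 65.4 CPM in 3xTg-S mice and fell by 0.78 ± 0.15 on the log2 scale (SE, adjusted p = 0.0306, edgeR), next to Steap3 and C1ql2. On chromosome 18 the clustered protocadherins, adhesion proteins that give neurons their surface identity, had 2 genes that rose (Pcdhb9 and Pcdhga4) and 4 that fell (Pcdha9, Pcdhb6, Pcdhgb6 and Pcdhga11) in a span of 55 tested genes. Pcdhga11 fell from 19.5 ± 0.990 to 3.2 ± 0.431 CPM (SD, n = 4, adjusted p = 4.44e-07, edgeR). The alpha and gamma genes share their last exons, so reads of those genes cannot be assigned with certainty.

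**Figure D4:**
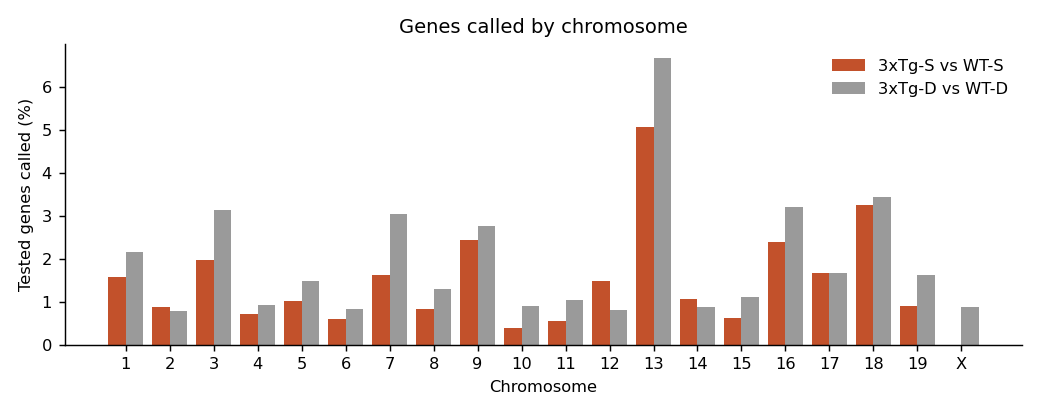
Percent of tested genes called (y axis, from 0) on each chromosome (x axis) in 3xTg-S vs WT-S and in 3xTg-D vs WT-D. Under CAY10566 chromosome 13 has the tallest bar, 5.07%, and the X chromosome has 0%.

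Gene groups of the tissue and the treatment were examined next, with 39 lists that held 738 genes, 701 of them tested. Of these 11 were called (1.57%, against 1.37% of all tested genes), 4 higher and 7 lower in 3xTg-S, and 42 had an unadjusted p of 0.01 or less (5.99%, against 4.21%). The 4 higher genes were Thy1, App, Neurog2 and H2-T22, and the 7 lower genes were Serpina3n, Slc38a3, Gpnmb, Foxj1, C1ql2, Bdnf and Cort. No gene was called in 30 of the lists. The share of list members called was close to that of all genes.

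Glial genes were represented by 3 calls besides Serpina3n, 1 each from microglial, astrocytic and ependymal lists. The reactive astrocyte list, which holds Serpina3n, had a median of 0.106, and of -0.183 without 3xTg-S 1. Gpnmb, a lysosomal glycoprotein raised in lipid-laden and disease-associated microglia, had 7.27, 9.52, 8.15 and 7.05 CPM in WT-S and 5.03, 3.95, 4.23 and 5.07 CPM in 3xTg-S mice, a log2 fold change of -0.81 ± 0.14 (SE, adjusted p = 0.017, edgeR). The other 23 tested genes of its list were not called, and the list median was -0.0545. Slc38a3, the astrocytic transporter that exports glutamine for the use of neurons, had 45.7, 45.4, 43.7 and 49.3 CPM in WT-S and 35.7, 31.4, 34.8 and 34.7 CPM in 3xTg-S mice, a log2 fold change of -0.43 ± 0.08 (SE, adjusted p = 0.0156, edgeR). Foxj1, the transcription factor that switches on motile cilia, had 6.71, 5.38, 6.18 and 5.26 CPM in WT-S and 2.87, 4.10, 3.53 and 3.61 CPM in 3xTg-S mice, a log2 fold change of -0.73 ± 0.15 (SE, adjusted p = 0.0402, edgeR). The groups of all 3 genes did not overlap, which held for all 225 called genes and adds nothing to the calls. In bulk tissue fewer cells of a type cannot be told apart from less RNA per cell.

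The other ependymal genes were mixed. Of 16 tested ependymal and ciliary genes 5, Foxj1, Rarres2, Ak7, Pifo and Rsph1, had an unadjusted p of 0.01 or less, all lower in 3xTg-S, with log2 fold changes of -0.73, -0.75, -0.89, -1.26 and -0.65, and the list median was -0.54 against 0.016 for all tested genes. Only Foxj1 passed adjustment, 5 of the 16 genes had a positive value, among them Ccdc39 at 0.45 ± 0.31 and Dnah5 at 0.18 ± 0.26 (SE), and the summed level overlapped at 85.9 to 120 CPM in WT-S and 76.8 to 122 CPM in 3xTg-S mice. The choroid plexus list had a median of -1.2 and no call, with 3 of 15 genes above 0, and the median was -0.25 without WT-S 1, the mouse with the high choroid plexus markers. Without WT-S 1 the ependymal median was -0.298 and Foxj1 was not called (adjusted p = 0.15), nor was it without WT-S 2, WT-S 3, 3xTg-S 1, 3xTg-S 3 or 3xTg-S 4 (adjusted p of 0.0777 to 0.134). Gpnmb lost its call without WT-S 2, WT-S 3 or 3xTg-S 3 (adjusted p of 0.0585 to 0.0783), and Slc38a3 without WT-S 1 or 3xTg-S 3 (0.0532 and 0.0606).

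Immune lists moved with a single mouse. In the interferon list all 26 tested genes had a positive log2 fold change, with a median of 0.575, but none was called, and without 3xTg-S 1 the count was 9 of 26 and the median -0.0859. Usp18, a protease that removes the ubiquitin-like modifier ISG15, had 8.62 CPM in 3xTg-S 1 against 0.905 to 1.67 CPM in the other 3xTg-S mice and 0.271 to 0.962 CPM in WT-S. The list of MHC class I and antigen presentation had 15 of 20 positive fold changes, and 7 of 20 without the same mouse. H2-T22, a class Ib molecule of that list, had 6.19, 5.23, 6.14 and 6.88 CPM in WT-S and 15.3, 11.7, 8.34 and 11.2 CPM in 3xTg-S mice, with 3xTg-S 1 the highest, and rose by 0.93 ± 0.17 on the log2 scale (SE, adjusted p = 0.0219, edgeR). Its call was lost without 3xTg-S 1 (adjusted p = 0.0547), WT-S 1 (0.0761), WT-S 2 (0.0845) or WT-S 3 (0.0735), and in 2 other fits, with an adjusted p of 0.245 in that of all 16 mice, and class I genes share reads with close copies. Complement had no call in 14 tested genes. C3, its central component, had 12.9, 5.23, 3.21 and 3.25 CPM in WT-S and 2.48, 1.33, 1.80 and 0.755 CPM in 3xTg-S mice (adjusted p = 0.182, edgeR), with WT-S 1 the highest.

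The neuronal genes on the lists that fell are made by granule cells, excitatory neurons or interneurons. C1ql2, a secreted organizer of mossy fibre synapses made by dentate granule cells, had 26.1, 49.4, 37.9 and 40.5 CPM in WT-S and 17.8, 14.3, 17.3 and 15.2 CPM in 3xTg-S mice, and fell by 1.26 ± 0.17 on the log2 scale (SE, adjusted p = 0.00506, edgeR). Bdnf, the neurotrophin that supports synaptic plasticity, had 80.9, 77.0, 78.8 and 67.3 CPM in WT-S and 53.3, 58.0, 58.4 and 47.0 CPM in 3xTg-S mice, a log2 fold change of -0.49 ± 0.09 (SE, adjusted p = 0.022, edgeR). Cort, the interneuron neuropeptide cortistatin, had 6.89, 6.94, 4.53 and 2.98 CPM in WT-S and 1.89, 1.81, 2.37 and 2.27 CPM in 3xTg-S mice, a log2 fold change of -1.36 ± 0.26 (SE, adjusted p = 0.0283, edgeR). The groups did not overlap in any of the 3, as in every called gene, although WT-S 4 came close to the 3xTg-S mice for Cort. C1ql2 was also called under vehicle, at -1.01 ± 0.13, while Bdnf and Cort were not, at -0.25 ± 0.08 and -0.44 ± 0.23. The call of Bdnf was lost without any mouse but WT-S 4 or 3xTg-S 2 (adjusted p of 0.0532 to 0.0861), and that of Cort without any mouse but WT-S 4 (0.0547 to 0.1).

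Synaptic lists had no call under CAY10566, but the signs of their members are given as a description. All 24 tested glutamate receptor genes had a positive log2 fold change, from 0.03 to 0.52 with a median of 0.148, where the vehicle median was -0.0195, and none passed the adjusted threshold. Grm8, a presynaptic metabotropic receptor, had 9.19, 8.44, 9.75 and 7.97 CPM in WT-S and 9.99, 12.5, 11.6 and 14.7 CPM in 3xTg-S mice (adjusted p = 0.144, edgeR). Grik1, a kainate receptor subunit, had 14.3 ± 1.85 and 19.8 ± 3.43 CPM (SD, n = 4, adjusted p = 0.179, edgeR). Leaving out single mice left 22 to 24 of the 24 above 0. The count of signs is a description and not a test. The summed level of the list was 5030, 4990, 5060 and 6010 CPM in WT-S and 5570, 5460, 5790 and 6510 CPM in 3xTg-S mice. The mice with the highest sums, WT-S 4 and 3xTg-S 4, also had the highest sums of nuclear long noncoding RNAs (9370 and 11200 CPM, with medians of 5170 CPM in WT-S and 8230 CPM in 3xTg-S) and the highest shares of reads outside genes (13.1% and 15.1%, with medians of 10.2% and 12.4%). Their part in the result was not tested. Lists for synaptic vesicle release, the postsynaptic density and synaptic adhesion had medians of 0.0843, 0.0449 and 0.0808, and that of GABA signalling -0.0303. The postsynaptic median ranged from 0.0134 without 3xTg-S 2 to 0.0691 without WT-S 4, and that of vesicle release was 0.0393 without WT-S 1. Cntn4 and Cntn2, contactins of the synaptic adhesion list, had log2 fold changes of 0.30 ± 0.08 and 0.34 ± 0.09 (SE, adjusted p = 0.0984 and 0.137, edgeR). Gabra2, a GABA-A receptor subunit, had 133, 115, 144 and 419 CPM in WT-S and 479, 458, 410 and 430 CPM in 3xTg-S mice, so that WT-S 4 lay within the 3xTg-S range, and it was not called (adjusted p = 0.364, edgeR).

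The lipid lists, the field of the inhibitor's action, held no called gene between 3xTg-S and WT-S mice. Dbi, which is on none of them and was singled out after its values were seen, fell. Under vehicle Dbi was not called, at a log2 fold change of -0.43 ± 0.12 (SE, adjusted p = 0.13, edgeR). Scd1 and Scd2, the desaturases of the adult mouse brain, had 184 ± 25.0 and 1419 ± 102 CPM (SD, n = 4) in WT-S and 148 ± 20.1 and 1341 ± 120 CPM in 3xTg-S mice, with adjusted p of 0.319 and 0.772 (edgeR). Fads6 and Elovl1, which belong to the families of desaturases and elongases, had log2 fold changes of -0.36 ± 0.09 and 0.40 ± 0.11 (SE, adjusted p = 0.12 and 0.155, edgeR). Acaca and Acly, which supply malonyl-CoA and acetyl-CoA for lipogenesis, were at 0.30 ± 0.08 and 0.21 ± 0.07 (adjusted p = 0.146 and 0.247). Of 23 cholesterol synthesis genes 20 had a positive value, with a median of 0.138 under CAY10566 and 0.197 under vehicle. Hmgcs1, which makes the precursor of mevalonate, had 311, 292, 285 and 283 CPM in WT-S and 396, 390, 325 and 347 CPM in 3xTg-S mice (adjusted p = 0.0978, edgeR), without overlap. Fdft1, the squalene synthase, had 67.4 ± 0.969 and 82.1 ± 6.82 CPM (SD, n = 4, adjusted p = 0.117, edgeR). In contrast, 2 of 20 genes of fatty acid beta-oxidation had a positive value, with a median of -0.0864 under CAY10566 and 0.104 under vehicle. Without 3xTg-S 4 these were 6 of 20 and -0.0411, and without 3xTg-S 2 the median was -0.141. None of the 13 tested acyl-CoA synthetases or the 22 tested lipid droplet genes was called.

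**Figure D5:**
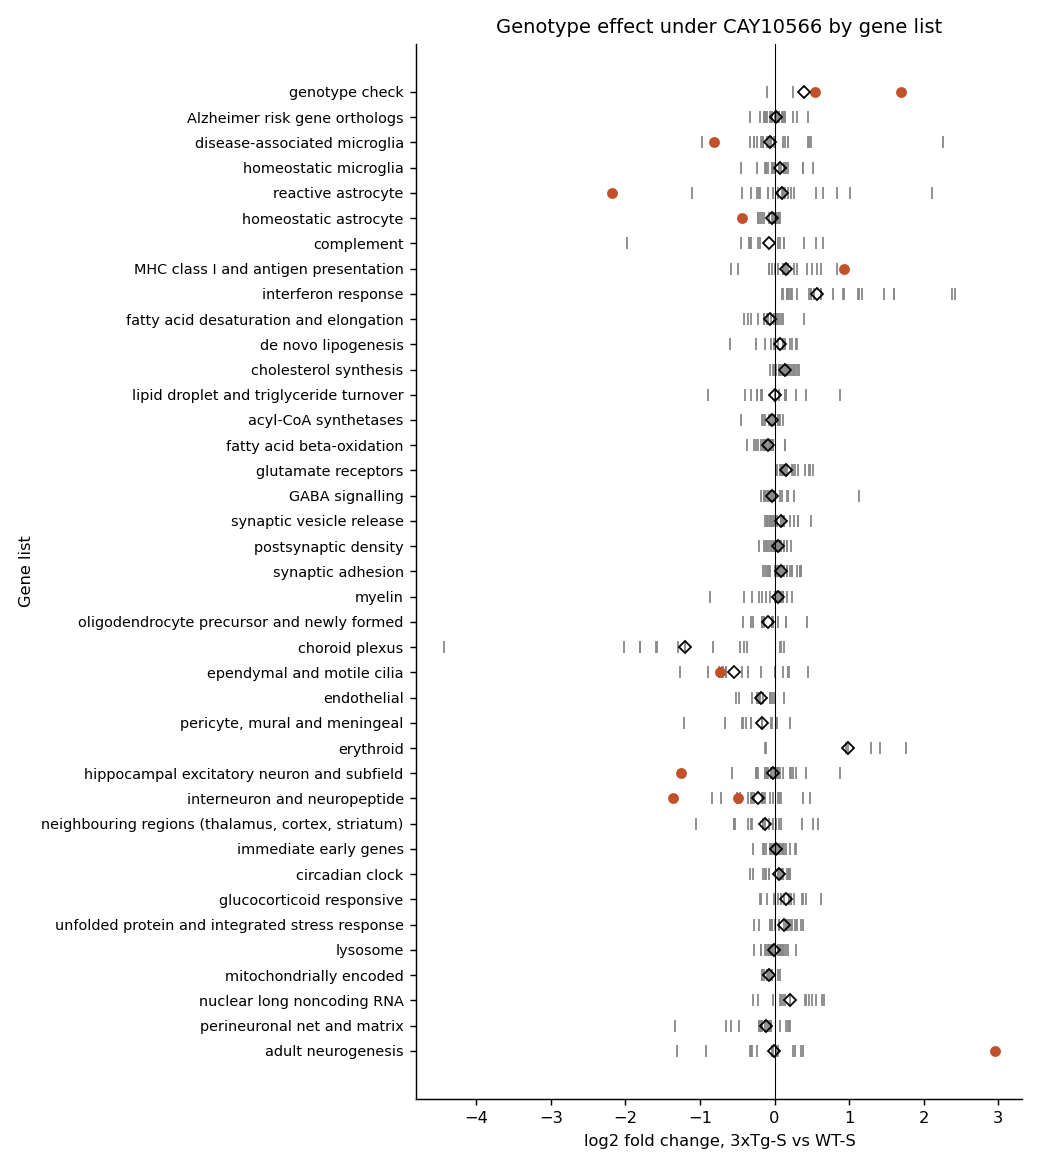
Log2 fold change of 3xTg-S vs WT-S (x axis) for each tested gene of 39 lists (rows), with called genes as filled circles, uncalled genes as ticks and the list median as an open diamond. The 11 called genes are spread over 9 lists, and the glutamate receptor ticks and the interferon ticks all lie right of 0.

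Markers of other cell types and states completed the lists. Myelin genes, endothelial genes, mural and meningeal genes, lysosomal genes, clock genes, immediate early genes and genes of the unfolded protein response had no call, with medians of 0.0434, -0.175, -0.169, -0.00727, 0.065, 0.0255 and 0.126. Some of these medians changed sign without single mice. The mural median ranged from -0.386 without WT-S 2 to 0.0172 without WT-S 4, and the myelin one from -0.0893 without 3xTg-S 2 to 0.125 without WT-S 1. The lysosomal and immediate early medians also changed sign. The endothelial median kept its sign, from -0.235 without 3xTg-S 4 to -0.0741 without WT-S 3. So did the clock median, at 0.0266 to 0.0914, and that of the unfolded protein response, at 0.0758 to 0.17. The listed orthologs of Alzheimer risk genes (29 tested, Wwox not among them), homeostatic microglial genes, oligodendrocyte precursor genes, markers of neighbouring regions, glucocorticoid-responsive genes, mitochondrially encoded genes and nuclear long noncoding RNAs also had no call, with medians of 0.0177, 0.0726, -0.086, -0.13, 0.16, -0.0768 and 0.211. Without single mice the median of the risk gene list ranged from -0.00476 to 0.0272, that of homeostatic microglia from -0.0197 to 0.182 and that of nuclear RNAs from 0.126 to 0.37. The adult neurogenesis list had Neurog2 as its 1 call among 16 tested genes and a median of -0.00434. Hspa5, the main chaperone of the endoplasmic reticulum, had 329, 297, 368 and 375 CPM in WT-S and 365, 491, 491 and 444 CPM in 3xTg-S mice (adjusted p = 0.146, edgeR). Sparc, a matrix protein secreted by glia and vessels, had 263, 267, 237 and 198 CPM in WT-S and 172, 190, 182 and 148 CPM in 3xTg-S mice and missed the threshold with an adjusted p of 0.0675 (edgeR). The erythroid list had a median of 0.985, and Hba-a2, a haemoglobin chain, had 0.985 to 1.33 CPM in WT-S and 1.56 to 4.70 CPM in 3xTg-S mice (adjusted p = 0.117, edgeR).

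The difference between the genotype effects under CAY10566 and under vehicle was followed for the called genes in which it was largest by p. Of the 225 genes 28 had an unadjusted p under 0.05 for this difference, 24 of them among the 89 genes not called under vehicle, and none passed adjustment. Over all 16475 tested genes 808 had such a p, and nothing is read from the count of 28, since the CAY10566 contrast that chose the genes enters the difference. Slc38a3 had a log2 fold change of -0.43 under CAY10566 and -0.09 ± 0.06 under vehicle (unadjusted p of the difference 0.00122, adjusted p = 0.799, edgeR). Steap3, an endosomal iron reductase, had 4.27, 5.02, 4.72 and 4.23 CPM in WT-S and 2.94, 2.95, 2.69 and 2.43 CPM in 3xTg-S mice, with fold changes of -0.73 ± 0.14 and -0.02 ± 0.14. Tshz3, a zinc finger transcription factor of neurons, had 15.6, 15.9, 16.9 and 16.6 CPM in WT-S and 26.1, 21, 23.5 and 27.2 CPM in 3xTg-S mice, with fold changes of 0.59 ± 0.10 and -0.07 ± 0.15. Tbr1, a T-box factor of glutamatergic neurons, had 42.8 ± 3.47 and 55.9 ± 3.33 CPM (SD, n = 4) and fold changes of 0.39 ± 0.08 and -0.04 ± 0.10. The matrix genes Abi3bp and Adamts2 had fold changes of 1.62 ± 0.28 and 0.75 ± 0.15 under CAY10566 and 0.12 ± 0.30 and 0.03 ± 0.16 under vehicle. Tbr1, Tshz3 and Pirb were the 3 called genes with opposite signs in the contrasts. The calls of Steap3, Adamts2 and Tbr1 under CAY10566 were lost in most fits without 1 mouse, with adjusted p of at most 0.118, 0.125 and 0.143, and that of Abi3bp without WT-S 1 or 3xTg-S 1 (0.0586 and 0.0522). With the choroid plexus score as covariate 26 genes named by rule kept their call and 16 lost it. Of this paragraph these were Slc38a3, Steap3, Tshz3, Tbr1, Abi3bp and Adamts2. The adjusted p was 0.0772 for Slc38a3, 0.101 for Abi3bp and 0.0731 for Tshz3 (edgeR). The others were Foxj1, Gpnmb, Bdnf, Cort, H2-T22, Col6a4, Exoc3l2, BC018473, Arhgap35 and Lmo3.

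Some genes outside the called list had smaller p values for this difference. Glo1, which detoxifies methylglyoxal, had 144, 166, 158 and 130 CPM in WT-S and 104, 125, 97.9 and 118 CPM in 3xTg-S mice, with log2 fold changes of -0.42 ± 0.10 under CAY10566 and 0.19 ± 0.09 under vehicle (unadjusted p of the difference 0.000462, edgeR). Plpp3, an ectophosphatase for lysophosphatidic acid, had -0.22 ± 0.08 and 0.23 ± 0.07 (unadjusted p of the difference 0.000618). Prrg4 and Grwd1 had -1.07 ± 0.24 and -0.27 ± 0.11 under CAY10566 and 0.15 ± 0.21 and 0.28 ± 0.09 under vehicle, and all 4 genes had an adjusted p of 0.799.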

How the data were processed

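Hippocampal RNA of 16 mice was sequenced from KAPA mRNA libraries with single-end reads. After trimming (Trimmomatic 0.35) and alignment to GRCm38 (STAR 2.5.1b, per the submitters' processing notes), the authors deposited raw counts per gene for 55335 genes, without normalization. The libraries carried molecular identifiers, but whether reads were collapsed by them, and the strand setting, are not given in the sources used here, so antisense and overlapping genes are uncertain. The 4 summary lines of the table stayed out of library sizes. Each mouse was a sample of its own.

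Counts were filtered with filterByExpr of edgeR 4.0.16 in R 4.3.3 (minimum count 10, minimum total 15), which left 16475 of 33942 genes with a count. TMM factors came from all 16 mice. Groups were compared pairwise by edgeR's two-sided quasi-likelihood test with Benjamini-Hochberg adjustment, and the difference of genotype effects was tested in all 16 mice. Depth limits low genes: 3 counts in a WT-S library are about 0.149 CPM, and floors cover counting error only. Fitted log2 fold changes of genes near 0 depend on the prior count, so levels are given instead. The tests across genes were tested on simulated counts. Gencode M21, of the same build, gave gene types and overlaps for 16466 tested genes, and RefSeq (GRCm38.p6) the windows at gene starts.

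The genes named were those of the genotype check, the 12 largest increases and the 12 largest decreases of called genes with a mean of at least 1 CPM in the higher group and no overlap of mice, up to 4 called genes of each list or else up to 2 uncalled ones by smallest p, 6 called and 6 of all genes with the smallest p for the difference of effects, and the 6 most abundant called genes. Not every named gene is printed, some are not reported here, and other genes were singled out after their values were seen. Members, lists and tests were chosen with earlier results of these data known. Alternatives were DESeq2 1.42.0 with median-ratio or DEGES factors, other edgeR factors and filters, a fit of all mice, a replicate block, 2 covariates, and each mouse left out.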

Additional observations from a re-analysis of the deposited data

Results flagged for a closer look

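Values that stood apart from the rest of their group were sought in 76 groups of 4 mice, where chance alone sets apart about 1 in 20 groups, and 2 were found. Neurog2 had 0.706 CPM in 3xTg-S 3 against 1.31 to 1.38 CPM in the other 3xTg-S mice, a gap of 0.889 of the group's range, and it remained above every WT-S mouse. Lmo3 had 202 CPM in 3xTg-S 2 against 172 to 176 CPM in the other 3xTg-S mice, a gap of 0.88 of the range. These 2 are not all the values that stood apart, since the search did not flag every named gene. Gabra2 in WT-S 4 (419 CPM against 115 to 144 CPM) and Usp18 in 3xTg-S 1 (8.62 CPM against 0.905 to 1.67 CPM) are not among them.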

How the results depend on the processing

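The 225 genes called in 3xTg-S vs WT-S became 404 with DESeq2, 405 with DESeq2 and DEGES factors, 412 without a filter, 387 with all 16 mice in one fit, 447 with the share of reads outside genes as covariate, 693 at an unadjusted p of 0.01 or less, 135 with at least 10 counts in every mouse and 114 with the choroid plexus score as covariate. Both other sets of edgeR factors gave 222. Leaving out single mice gave 124 to 314. The 307 vehicle genes became 792 at the unadjusted threshold, and 167 to 349 without single mice, with 202 without 3xTg-D 1 and 167 without 3xTg-D 3. The difference of genotype effects went from 0 genes to 1 with DESeq2, 103 at the unadjusted threshold and 0 to 1 without single mice, the 1 gene being Gm15920 without WT-D 3. The r of the effects was 0.72 over all genes, 0.962 over called genes, 0.587 at a mean of at least 10 CPM and 0.645 to 0.748 without single mice. The 11 list genes became 29 with DESeq2 under either scaling, 23 without a filter, 18 with all 16 mice, 28 with the outside share, 5 with the choroid plexus score and 6 to 22 without single mice, with 6 without WT-S 1, WT-S 2, WT-S 3 or 3xTg-S 3 and 22 without WT-S 4. Chromosome 13 held 14.2% of called genes and 12.5 to 16.8% without single mice. No gene named by rule changed its sign in any of these fits. The cause of these shifts was not tested, beyond the fewer genes, mice or thresholds that define them. Leaving out single mice for the difference of effects and for the r was chosen after seeing the data.

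Replicate numbers were shared between groups, but nothing states that they pair the mice. Across genes, the deviations of same-numbered mice from their group means had correlations of 0.142, 0.496, -0.101 and 0.427 under CAY10566. Their mean was 0.241, against -0.0839 for other numbers. The mice numbered 1, 2 and 4 matched their own number best, and those numbered 3 did not. The number was not used as a pairing, because no label states one and the correlation of number 3 was negative. Whether the number marks a shared effect was not tested. A replicate block gave the CAY10566 contrast 603 called genes, 307 higher and 296 lower, and all 225 were among them. The block gave 330 genes under vehicle, 0 for the difference of effects, an r of 0.731, 39 list genes and 9.78% of called genes on chromosome 13.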

Other observations

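Some genes were split among the mice of a single group. Rps3a3 and Gm6166, which separated the genotypes under CAY10566, were split among the vehicle mice. Rps3a3 was at 0.096 CPM in WT-D 2 against 29.7 to 50.9 CPM in the other WT-D mice. Gm6166 was at 0.0422 and 0.144 CPM in WT-D 1 and WT-D 2 and at 25.4 and 22.3 CPM in WT-D 3 and WT-D 4. Gabra2, which did not separate the genotypes under CAY10566, was at 419 CPM in WT-S 4 and at 115 to 144 CPM in the other WT-S mice. Tagap1, a paralog of Tagap that rose, was at 10.8 CPM in WT-S 3 and at 4.44 to 5.39 CPM in the other WT-S mice, against 15.9 to 16.6 CPM in 3xTg-S. Pirb, a paired immunoglobulin-like receptor, had 0.653 to 0.715 CPM in 3xTg-S and 0.104 to 0.328 CPM in WT-S mice, while WT-D mice ranged from 0.15 to 2.28 CPM.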
